A study of Mus musculus with 9 samples.

Results

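The TRiC chaperonin, also written CCT, is the folding chamber of the eukaryotic cytosol, and its 8 subunits are the genes Tcp1, Cct2, Cct3, Cct4, Cct5, Cct6a, Cct7 and Cct8. The subunits were taken by gene symbol from a deposited table of 19944 genes, and all 8 were found there once each and passed the filter on low values (a mean of at least 10). The livers came from male mice of the FVB strain, 60 days old and kept on normal chow, with 3 libraries per genotype. KI livers carried a mutated Tudor domain in Snd1, a gene for a nuclease-like RNA-binding protein, KO livers had a knockout of Snd1, and WT livers had the unaltered gene. The series asks what the Tudor domain of SND1 contributes to liver transcription. The changed residues, the kind of knockout allele, its cell range and the litters are not given in the sources used here, so p-values below measure only the spread between these libraries, which may be technical. Libraries are named by group and replicate number, such as KI_1.

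TRiC is built of 2 stacked rings, and each ring holds 1 copy of every subunit in a fixed order around the chamber. An unfolded protein enters the open chamber, a built-in lid closes when ATP is hydrolysed, and the protein folds inside. Actins and tubulins are its classic substrates. The co-chaperone prefoldin passes them to TRiC, and proteins of the phosducin-like family also bind it. In the yeast complex, Tcp1, Cct2, Cct4 and Cct5 lie on the side of the ring with high affinity for ATP, and Cct3, Cct6, Cct7 and Cct8 lie on the side with low affinity.

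The deposited values are read counts per gene that the authors scaled between libraries, called normalized counts here. The recovered depth was 59678412 to 66384374 reads per library. Each subunit had 3919 to 9890 reads in a library, so counting error alone gave a coefficient of variation of at most 1.60%. Snd1 had 5373, 7941 and 5595 normalized counts in KI livers, 227, 414 and 359 in KO livers, and 6951, 8446 and 6512 in WT livers, which matches the genotype labels. The label hepatocyte stands beside liver tissue, and all 8 hepatocyte markers checked were measured, with a summed share of 4.99% to 8.15% of reads in KI, 9.17% to 10.6% in KO and 7.59% to 9.81% in WT livers. Markers of exocrine pancreas, all 19 of 19 measured, took 0.547% of reads in KI_1, 6.36% in KI_3 and 1.33% in WT_3, against 0.00175% to 0.00526% in the other 6 libraries. Neutrophil markers, 8 of 12 measured and none at 0 in all libraries, took 0.00161% of reads in KO_2 and 0.00328% in KO_3, against 0.000158% to 0.000593% in the other 7 libraries. In bulk liver, fewer cells of a type and less RNA per cell cannot be told apart.

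The subunits on the side with high ATP affinity are given first, each with its position in GRCm38 from GENCODE M21. Tcp1 (chr17:12915701-12925067), the founding subunit, encoded in the mouse t-complex, had 8783, 8241 and 8168 normalized counts in KI_1, KI_2 and KI_3, 6383, 6497 and 6121 in KO_1, KO_2 and KO_3, and 6937, 7233 and 7602 in WT_1, WT_2 and WT_3. All KI libraries were above all WT libraries, and all KO libraries were below them. Cct2 (chr10:117051001-117063814), mutated in a human retinal dystrophy, had 6757, 7225 and 6592 normalized counts in KI livers, 6027, 5224 and 4713 in KO livers, and 6109, 6067 and 6307 in WT livers, in the order of the replicate numbers. KO_1 came close to the lowest WT library, and the 3 groups did not overlap. Cct4 (chr11:22990519-23003780) had 4924, 5172 and 4932 normalized counts in KI livers, 4187, 3970 and 3787 in KO livers, and 5030, 4883 and 5308 in WT livers. KI and WT shared a range, and all KO libraries lay below both. Cct5 (chr15:31590800-31601804), mutated in a human sensory neuropathy, had 8832, 8965 and 8364 normalized counts in KI livers, 6974, 5980 and 6337 in KO livers, and 7561, 7741 and 7464 in WT livers. KI was highest and KO lowest, with no overlap between any groups.

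On the side with low ATP affinity, Cct3 (chr3:88297116-88321767) had 7182, 7428 and 6075 normalized counts in KI livers, 5893, 5117 and 4715 in KO livers, and 4968, 5239 and 4934 in WT livers. It was the exception among the subunits in its WT level, since WT overlapped KO and both lay below every KI library. Cct6a (chr5:129786998-129846371) had 6653, 7098 and 6265 normalized counts in KI livers, 5027, 4060 and 4215 in KO livers, and 5345, 6125 and 7029 in WT livers. Its WT libraries spread more than those of any other subunit, with a coefficient of variation of 13.7%, and KI overlapped their upper range while KO lay below them. Its germline-enriched paralog Cct6b averaged 25.5 ± 6.95 normalized counts in KI, 31.5 ± 9.74 in KO and 40.3 ± 22.8 in WT livers (SD, n = 3 each), and reads that match both copies cannot be told apart in the table. Cct7 (chr6:85451514-85468475) had 7734, 6829 and 6526 normalized counts in KI livers, 5429, 4865 and 4299 in KO livers, and 5988, 6218 and 5829 in WT livers. The 3 groups of Cct7 did not overlap, with KI on top and KO at the bottom. Cct8 (chr16:87483326-87495873) had 8992, 9032 and 8031 normalized counts in KI livers, 8075, 6873 and 6958 in KO livers, and 8159, 7877 and 9122 in WT livers. KO_1 reached into the range of both other groups for Cct8, and KI and WT overlapped.

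**Figure D1:**
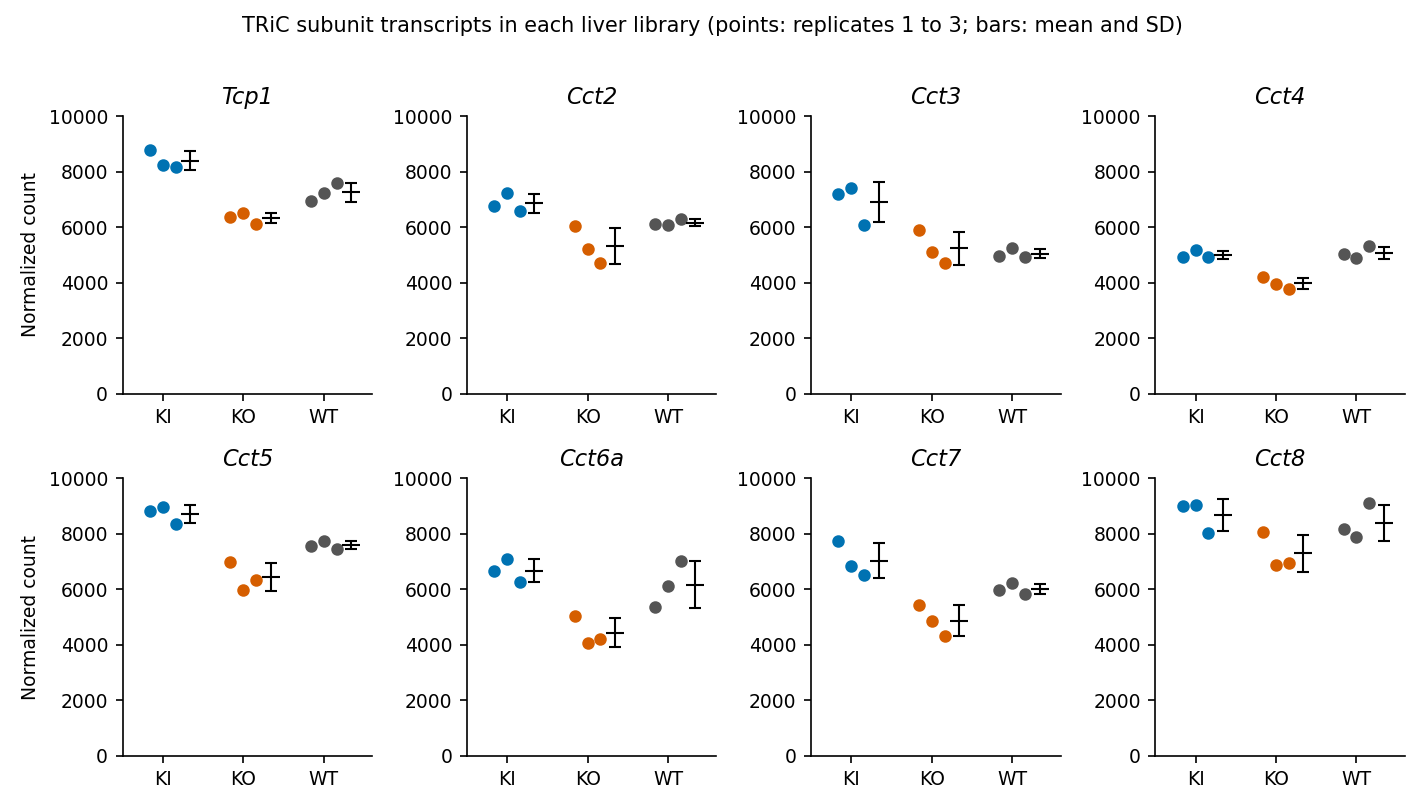
Normalized counts of each TRiC subunit (linear axis from 0) in the KI, KO and WT liver libraries, where points are replicates 1 to 3 from left to right and bars give the mean and SD of the 3 libraries. KO points lie lowest for Tcp1, Cct2, Cct4, Cct5, Cct6a and Cct7, and Cct3 is the subunit whose WT points lie as low as its KO points.

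Summed over the 8 subunits, KI livers had 58268 ± 2871 normalized counts, KO livers 43909 ± 3612 and WT livers 51691 ± 1769 (SD, n = 3 each). As a share of all reads the subunits made up 0.0900% ± 0.0110 in KI, 0.0726% ± 0.0041 in KO and 0.0851% ± 0.0026 in WT livers. The measures differed for KI_3. Its share of reads, 0.0777%, lay below every WT library, at 0.0825% to 0.0878%, while its normalized sum of 54953 lay above them. The mean log2 deviation of the 8 subunits from their WT means reached 0.21 for KI_1, 0.22 for KI_2 and 0.09 for KI_3. For KO_1 the value was -0.11, for KO_2 -0.28 and for KO_3 -0.34, and the WT libraries ran from -0.04 to 0.05. In this mean deviation KO_1 thus stood nearest to WT among the KO libraries, and KI_3 among the KI libraries. KI_3 was the library with the most pancreatic transcripts. KI_2, with 0.00517% pancreatic marker reads, and KI_1, with 0.547%, deviated by 0.22 and 0.21. The part of pancreatic transcripts in these deviations was not tested. KO_2 and KO_3, where the subunits were lowest by normalized counts, were also the libraries with the highest share of neutrophil markers. By share of all reads the subunits made up 0.0749% in KO_1, 0.0678% in KO_2 and 0.0750% in KO_3. On that measure KO_3 was level with KO_1, so the picture depends on the scaling. The part of neutrophil transcripts in the result was not tested.

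Levels of different subunits can be compared only per length, and here the normalized count was divided by the length of the longest annotated transcript in GENCODE M21, in kb. Cct5 had the highest level on this scale, with 4706 ± 171 in KI, 3470 ± 272 in KO and 4095 ± 75.9 in WT livers (SD, n = 3 each). Cct4 had the lowest, with 2017 ± 56.8 in KI, 1603 ± 80.7 in KO and 2042 ± 87.0 in WT livers. The highest and the lowest level per kb therefore differed 2.33-fold in KI, 2.17-fold in KO and 2.01-fold in WT livers, although the assembled complex holds the subunits in equal number. In KI livers the order ran from Cct5 through Cct8, Cct2, Cct3, Tcp1, Cct7 and Cct6a to Cct4. Within that order Cct8, Cct2, Cct3 and Tcp1 overlapped each other, Cct7 overlapped Cct6a, and Cct5 and Cct4 stood apart from their neighbours. KO livers had the same order of means, with overlap between every pair of neighbours except Tcp1 and Cct7. WT livers differed in that Tcp1 stood above Cct3 and Cct6a above Cct7; there Cct2 overlapped Tcp1, and Cct3 and Cct7 overlapped Cct6a. The order and these ratios depend on the gene model. With all annotated exons merged, the highest level per kb belonged to Cct5 in KI and WT livers and to Cct8 in KO livers, and the lowest to Cct7 in KI and KO livers and to Cct3 in WT livers. The ratio of highest to lowest was then 3.04 in KI, 3.29 in KO and 3.46 in WT livers, so the order of the groups by this ratio turned round.

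**Figure D2:**
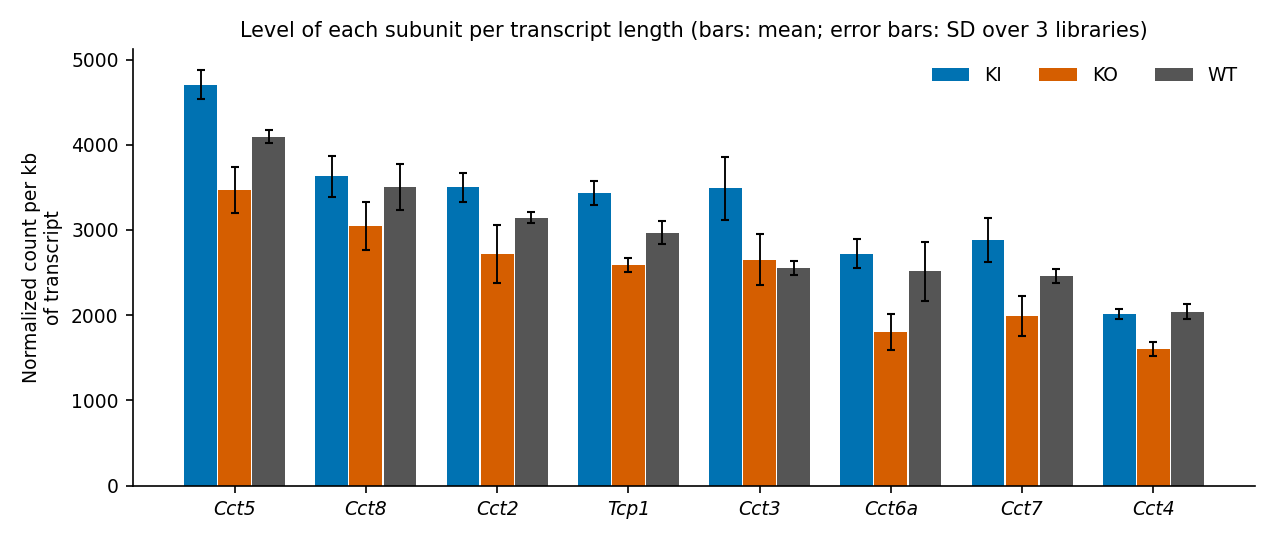
Mean normalized count per kb of the longest annotated transcript for each subunit (linear axis from 0), with SD over 3 libraries, for KI, KO and WT livers, sorted by the WT level. Cct5 stands highest and Cct4 lowest in all 3 groups.

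KI against KO was the comparison in which subunits rose. Of the 8 subunits, 4 were called higher in KI livers and 0 lower, where called means an adjusted p under 0.05 by limma, with Benjamini-Hochberg adjustment over 15238 genes. Over all genes tested, 3.6% were called higher and 4.85% lower. At an unadjusted limma p under 0.05 all 8 passed, against 24.9% of all genes tested. Cct6a rose most, to 6672 ± 417 normalized counts in KI livers, against 4434 ± 520 in KO livers (SD, n = 3 each), which is 1.51-fold, or 0.59 ± 0.13 on the log2 scale (SE; limma adjusted p = 0.0228). Cct7 rose 1.45-fold, with 7030 ± 629 normalized counts in KI and 4864 ± 565 in KO livers (log2 fold change 0.53 ± 0.12, limma adjusted p = 0.0216). Cct5 and Tcp1 rose by log2 fold changes of 0.44 ± 0.099 and 0.41 ± 0.094 (limma adjusted p = 0.0247 and 0.0284). Both sides of the ring therefore held called subunits, Tcp1 and Cct5 on one and Cct6a and Cct7 on the other.

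The other 4 subunits did not pass in KI against KO. Cct4 had a log2 fold change of 0.33 (limma adjusted p = 0.0528), Cct2 of 0.37 (0.0666), Cct3 of 0.40 (0.0690) and Cct8 of 0.25 (0.201). For Cct8 the 95% interval ran from 0.00023 to 0.50. The log2 fold changes of all 8 were positive, with a median of 0.40 against 0.01 over all genes tested. For 7 of the 8, every KI library was above every KO library, which held for 12.3% of all genes tested, and Cct8 was the subunit that overlapped. How many were called depended on the libraries: 0 passed without KI_1, KO_2 or KO_3, 1 without KI_2 or KI_3, 2 without WT_1 and 7 without KO_1. Without the 3 libraries with pancreatic transcripts 0 passed, with a single KI library left, and the median log2 fold change was 0.47.

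KO against WT went the other way in 7 of 8 subunits, with 1 called lower and 0 higher by limma. Over all genes tested, 4.2% were called lower and 4.63% higher. Cct4 was the subunit called, with 3981 ± 201 normalized counts in KO and 5073 ± 216 in WT livers (SD, n = 3 each), which is -0.35 ± 0.092 on the log2 scale (SE; limma adjusted p = 0.0426). Cct6a had the lowest fold change, -0.47 ± 0.13, and missed the threshold (limma adjusted p = 0.0503). The log2 fold change was -0.31 for Cct7, -0.24 for Cct5, -0.22 for Cct2 and -0.20 for Tcp1 and Cct8 (limma adjusted p = 0.127 to 0.308). At an unadjusted p under 0.05, 4 of the 8 passed, Cct4, Cct6a, Cct7 and Cct5, against 25% of all genes tested. Cct3 had a value of 0.05, with a 95% interval from -0.22 to 0.31. The median of the 8 was -0.23, against 0.00083 over all genes tested. In 6 of 8 subunits every KO library lay below every WT library, as in 14.2% of all genes tested, and Cct3 and Cct8 overlapped. The call on Cct4 was lost with edgeR (adjusted p = 0.0582), with no filter on low values and with only the 2 groups compared. The pancreatic marker level as a covariate, or either replicate numbering as a block, also removed the call. The call on Cct4 did not hold either when any KI or WT library, KO_2 or KO_3 was left out. Without KO_1, Cct4, Cct6a and Cct7 were called.

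KI against WT gave no call, with 0 of 8 subunits passing by limma and by edgeR and 1, Cct3, by DESeq2. Over the whole table limma called 0.0263% of genes in this comparison, 4 genes in all, and DESeq2 called 385. At an unadjusted p under 0.05, 2 of the 8 passed, Tcp1 and Cct3, against 11.6% of all genes tested. Cct3 had 6895 ± 721 normalized counts in KI and 5047 ± 167 in WT livers (SD, n = 3 each), a log2 fold change of 0.45 with a 95% interval from 0.18 to 0.71 (limma adjusted p = 0.203). Cct7, Tcp1 and Cct5 had log2 fold changes of 0.22, 0.21 and 0.20, Cct2 of 0.15, Cct6a of 0.12 and Cct8 of 0.05. Cct4 had a value of -0.02, with an interval from -0.22 to 0.19. The median was 0.18, against 0.0045 over all genes tested. In 5 of 8 subunits all KI libraries were above all WT libraries, as in 9.47% of all genes tested, while Cct4, Cct6a and Cct8 overlapped. Both comparisons with WT use the same 3 WT libraries, so their values are not independent of each other.

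**Figure D3:**
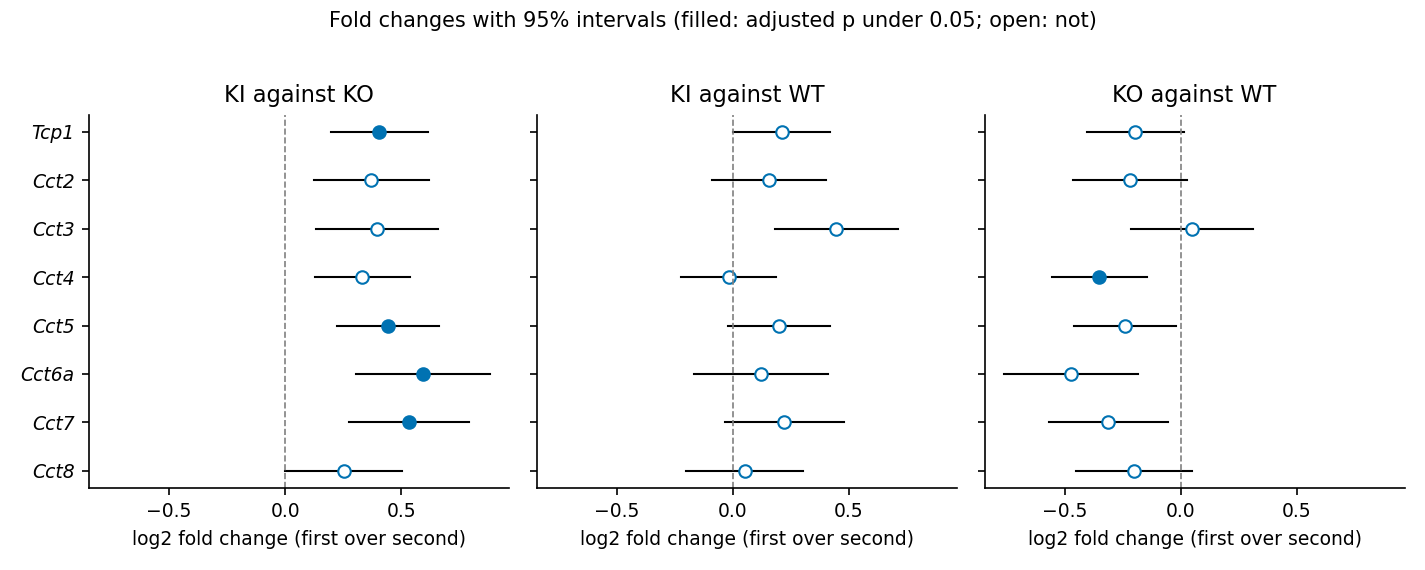
Log2 fold changes of each subunit with 95% intervals from the limma fit, for KI against KO, KI against WT and KO against WT, each as the first group over the second, with filled points for adjusted p under 0.05. All 8 values are positive in KI against KO, and 7 of 8 are negative in KO against WT.

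The proportions among the subunits were described, without a test, as each subunit's share of the summed value of the 8. This share removes what the subunits have in common. Within a library a higher share of any subunit lowers those of the others. No rate over all genes is at hand for groups of such shares that do not overlap. Cct3 took 11.8% ± 0.684 of the sum in KI and 11.9% ± 0.418 in KO livers, against 9.77% ± 0.511 in WT livers (SD, n = 3 each). All 6 KI and KO libraries, at 11.1% to 12.4%, were above the WT libraries, at 9.21% to 10.2%. Cct4 had the opposite pattern, with 8.61% ± 0.375 in KI and 9.08% ± 0.316 in KO livers against 9.82% ± 0.280 in WT livers, and the WT libraries were above all others. Cct6a made up 10.1% ± 0.490 in KO livers, below both 11.4% ± 0.361 in KI and 11.9% ± 1.22 in WT livers. Cct8 made up 14.9% ± 0.246 in KI livers, below both 16.6% ± 0.423 in KO and 16.2% ± 0.848 in WT livers. The shares of Tcp1, Cct2, Cct5 and Cct7 overlapped between all groups.

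**Figure D4:**
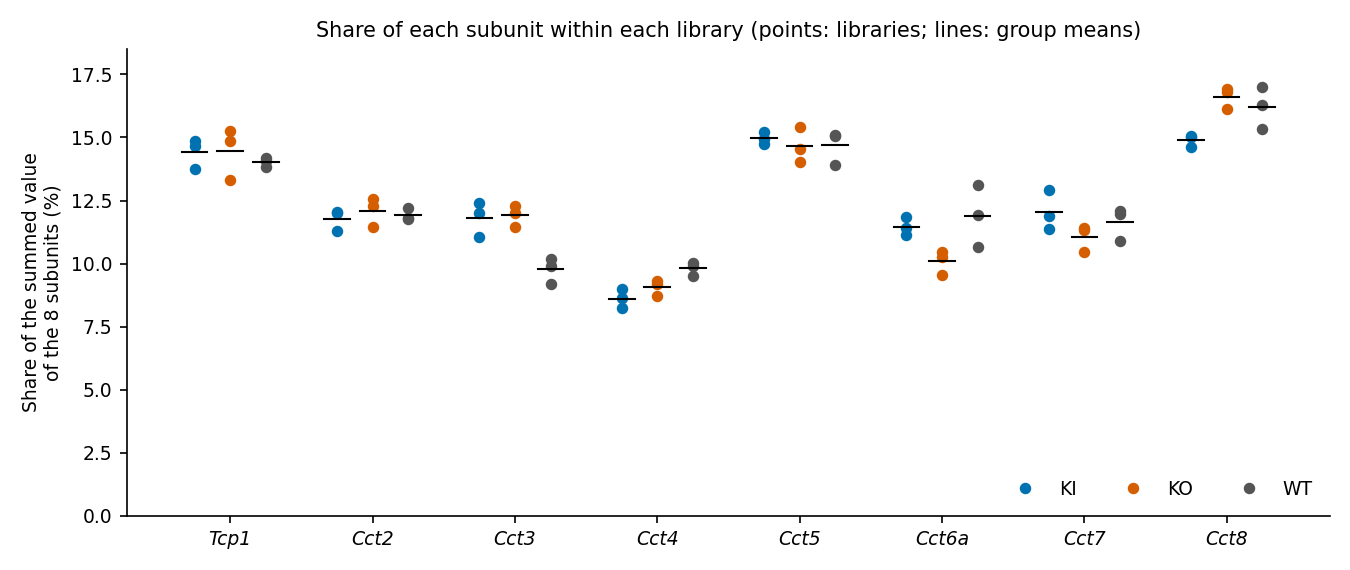
Share of each subunit in the summed normalized count of the 8, in percent (linear axis from 0), where points are libraries and lines group means for KI, KO and WT livers. The mean Cct3 share is 11.8% in KI and 11.9% in KO livers, against 9.77% in WT livers.

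Across the 9 libraries the log2 values of the 28 subunit pairs had Pearson correlations from 0.39, for Cct3 with Cct4, to 0.94, for Cct5 with Cct7, with a median of 0.86. These libraries share their scaling and fall into 3 genotypes, so the values describe the table and carry no test. After the genotype means were removed the median was 0.59, and the range ran from -0.015 to 0.87. Outside the complex, the 5 genes whose log2 profile over the 9 libraries was most like the mean of the 8 subunits were Keg1, St13, Ppid, Ptcd2 and Rap2a, with r from 0.982 to 0.985. Without KO_2 and KO_3, the 2 libraries farthest from the median, r was 0.954 to 0.975 over 7 libraries. St13, an HSP70-interacting co-chaperone, averaged 11284 ± 1220 normalized counts in KI, 7274 ± 1309 in KO and 9508 ± 517 in WT livers (SD, n = 3 each). Ppid, a cyclophilin that binds HSP90, averaged 2083 ± 110 in KI, 1274 ± 154 in KO and 1613 ± 167 in WT livers. Keg1, with the highest r, averaged 27110 ± 6081 in KI, 8541 ± 3394 in KO and 16915 ± 4849 in WT livers. In the same order Ptcd2 averaged 1725 ± 96, 1136 ± 144 and 1404 ± 111, and Rap2a 2341 ± 149, 1369 ± 203 and 1841 ± 189. All 5 were picked for their likeness to the subunits over these libraries, so the order of their group means is no separate result. The most opposite profiles were those of Ccdc17 (r = -0.966) and Htra2, a mitochondrial serine protease (r = -0.958), which averaged 515 ± 30.9 normalized counts in KI, 741 ± 43.2 in KO and 614 ± 14.3 in WT livers.

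Promoter sequence was examined because the log2 fold changes of all 8 subunits had the same sign in KI against KO. RefSeq, on build GRCm38.p6, held a promoter for 7 of the 8 subunits, and 9 windows of 250 bases before a start site were read. The windows of the 4 subunits called in KI against KO are shown, followed by that of Cct3, the subunit whose share differed most from WT; for Cct5 the window of the more upstream start is given. They read 5′ to 3′ on the gene's strand and end at the base before the start. Capitals mark CCAAT boxes, written CCAAT or, on the other strand, ATTGG, and the heat shock element unit TTCNNGAA.
Tcp1, chr17:12916079-12916328, plus strand: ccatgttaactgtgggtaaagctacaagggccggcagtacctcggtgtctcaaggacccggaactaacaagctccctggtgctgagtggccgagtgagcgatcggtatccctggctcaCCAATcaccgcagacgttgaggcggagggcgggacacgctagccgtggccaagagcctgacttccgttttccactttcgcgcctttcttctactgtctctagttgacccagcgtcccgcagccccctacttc
Cct5, chr15:31601847-31602096, minus strand: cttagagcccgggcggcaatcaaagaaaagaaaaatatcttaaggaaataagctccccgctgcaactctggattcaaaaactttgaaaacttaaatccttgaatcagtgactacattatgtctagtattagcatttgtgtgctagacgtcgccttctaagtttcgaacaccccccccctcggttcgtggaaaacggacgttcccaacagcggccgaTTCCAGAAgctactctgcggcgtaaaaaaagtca
Cct6a, chr5:129787106-129787355, plus strand: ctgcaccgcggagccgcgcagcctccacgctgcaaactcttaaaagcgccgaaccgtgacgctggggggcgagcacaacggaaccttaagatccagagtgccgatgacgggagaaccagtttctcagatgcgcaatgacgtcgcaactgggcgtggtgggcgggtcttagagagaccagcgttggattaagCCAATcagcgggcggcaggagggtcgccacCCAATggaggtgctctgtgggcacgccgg
Cct7, chr6:85451255-85451504, plus strand: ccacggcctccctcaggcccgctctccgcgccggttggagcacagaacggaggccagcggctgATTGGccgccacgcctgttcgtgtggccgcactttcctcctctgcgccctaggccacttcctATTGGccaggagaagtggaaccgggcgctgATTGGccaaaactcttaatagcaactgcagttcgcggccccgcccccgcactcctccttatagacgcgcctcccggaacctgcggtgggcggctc
Cct3, chr3:88296885-88297134, plus strand: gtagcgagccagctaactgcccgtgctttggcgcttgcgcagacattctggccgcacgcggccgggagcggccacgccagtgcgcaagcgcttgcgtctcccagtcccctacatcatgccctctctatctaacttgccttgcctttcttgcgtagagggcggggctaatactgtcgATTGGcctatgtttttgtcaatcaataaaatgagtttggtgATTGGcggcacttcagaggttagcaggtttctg

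The printed windows show CCAAT boxes in Tcp1, Cct6a, Cct7 and Cct3, and those of Cct7 and Cct3 all lie on the strand opposite to the gene. Among the 9 subunit windows 4 held a CCAAT box on either strand, against 33.9% of 32841 RefSeq promoter windows of the same length. The unit TTCNNGAA, which reads the same on both strands, occurred in the Cct5 window from -34 to -27 before the start and in 7.17% of all windows. Its inverted form GAANNTTC occurred in 1 window of Cct2 and in 6.70% of all windows. That Cct2 window, chr10:117063376-117063625, lies inside the bounds that GENCODE M21 gives the gene. The Cct5 window not printed and the windows of Tcp1 and Cct6a also lie inside the bounds of their genes. The GC box GGGCGG, on either strand and not in capitals above, was found in 8 of the 9 windows, against 32.7% of all windows. Each of the 7 subunits had it in at least 1 window. G and C made up 45.2% (the printed Cct5 window) to 66.8% (a Cct2 window) of the bases in the subunit windows. The median over all windows was 52.4%, and the part of base content in these matches was not tested. The motif CCGGAAGT, an ETS core, occurred in Cct8 and in 2.88% of all windows, and the E-box CACGTG in none of the subunit windows and in 6.02% of all. These matches describe letters in the windows and say nothing of binding.

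The genes of 6 subunits start within 1000 bases of a gene that starts on the opposite strand in GENCODE M21. Of 12997 tested protein-coding genes, 19.3% have this arrangement. Distances run between the outermost starts annotated in GENCODE M21, which can differ from the RefSeq starts of the windows above. Tcp1 starts at base 12915701 and Cct6a at 129786998 in GENCODE M21, while their windows end at 12916328 and 129787355. From the RefSeq starts the distances would differ. Tcp1 faces Mrpl18, a mitochondrial ribosomal protein gene, at 644 bases, and Cct7 faces Pradc1 at 456. Cct6a faces Psph, the last enzyme of serine synthesis, at 451 bases, and Cct3 faces Tsacc at 117. Cct5 faces Fam173b at 48 bases and Cct8 faces the uncharacterised B130034C11Rik at 126. In the 3 comparisons of these 6 partners, 18 tests in all, 0 passed by limma or edgeR, 2 by DESeq2 (Mrpl18 and Pradc1 in KI against KO) and 3 at an unadjusted limma p under 0.05. Those 3 were Mrpl18 and Pradc1 in KI against KO and Pradc1 in KO against WT. In these comparisons 24.9% and 25% of all genes tested passed at this level. DESeq2 called 2286 genes over the whole table in KI against KO. Group means were 19.2 to 23.6 normalized counts for Tsacc and 8.75 to 20.6 for B130034C11Rik, near the filter of 10. The SEs of their log2 fold changes were 0.61 and 0.98, so the lack of a call says little about them. Mrpl18 averaged 1816 ± 110 normalized counts in KI and 1434 ± 48.5 in KO livers (SD, n = 3 each), a log2 fold change of 0.34 (limma adjusted p = 0.0832), and Pradc1 averaged 359 ± 73.4 in KI and 238 ± 32.0 in KO livers, a log2 fold change of 0.58 (limma adjusted p = 0.0902). Psph had a log2 fold change of -0.04 and Fam173b of 0.0084 in the same comparison, beside 0.59 for Cct6a and 0.44 for Cct5. The strand setting of the counting is not given in the sources used here. How reads from bases shared with a gene on the opposite strand were counted is therefore not known. The shared bases below are overlaps of whole gene spans, introns included. Tcp1 shares 645 bases with Mrpl18, Cct7 457 with Pradc1 and Cct6a 452 with Psph, and Cct8 shares 192 with Usp16. Tcp1 also overlaps the antisense gene Acat3 over 1255 bases. Acat3 averaged 11563 ± 2725 normalized counts in KI, 12313 ± 5088 in KO and 15040 ± 2232 in WT livers and was chosen for this overlap.

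Among the partners that hand proteins to TRiC, 1 of the 6 prefoldin subunits was called higher in KI against KO by limma, edgeR and DESeq2, where limma called 3.6% of all genes tested higher. In each comparison with WT 0 were called by these tools. At an unadjusted limma p under 0.05, 1 passed in KI against WT and 1 in KO against WT, against 11.6% and 25% of all genes tested. Pfdn6 averaged 1150 ± 58.0 normalized counts in KI and 843 ± 87.0 in KO livers (SD, n = 3 each), a log2 fold change of 0.45 (limma adjusted p = 0.0348). Pfdn2, Vbp1, Pfdn4, Pfdn5 and Pfdn1 had values of 0.33, 0.18, 0.25, 0.14 and -0.0015 in that comparison and did not pass. The prefoldin median was 0.22 in KI against KO, 0.15 in KI against WT and -0.15 in KO against WT. In KI against KO it was 0.12 without KO_1, 0.11 without the 3 libraries with pancreatic transcripts and 0.047 with the pancreas covariate. It was 0.10 without WT_1 in KI against WT and -0.083 without KO_2 in KO against WT. Of the 3 measured phosducin-like co-chaperones, 0 were called by limma, edgeR or DESeq2. At an unadjusted limma p under 0.05, 1 passed in each comparison. That level was passed by 24.9% of all genes tested in KI against KO, 11.6% in KI against WT and 25% in KO against WT. Pdcl, Pdcl3 and Txndc9 had log2 fold changes of -0.27, -0.21 and -0.08 in KI against KO. Among the chaperonin-like proteins, Mkks, which assembles the BBSome of cilia together with TRiC, averaged 1002 ± 75.9 normalized counts in KI and 670 ± 83.8 in KO livers, a log2 fold change of 0.59 (limma adjusted p = 0.0248). Bbs10, Bbs12 and Cct6b were not called by any of the 3 tools in any comparison. Neither Pfdn6 nor Mkks passed without KI_1, KI_2, KI_3 or KO_2, or without the 3 libraries with pancreatic transcripts, where their log2 fold changes were 0.38 and 0.56. Pfdn6 was lost without KO_3 or any WT library too.

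The actin and tubulin genes, whose products need TRiC to fold, went both ways. In KO against WT 5 of 13 tested genes were called higher and 0 lower, where 4.63% of all genes tested were called higher and 4.2% lower, while the subunits had a median of -0.23. Tubb2a averaged 3004 ± 851 normalized counts in KO and 781 ± 218 in WT livers (SD, n = 3 each), a log2 fold change of 1.95 (limma adjusted p = 0.00301). Tubb2b, Tubb6 and Actb had log2 fold changes of 1.82, 0.86 and 0.69 (limma adjusted p = 0.0106, 0.0177 and 0.0234), and Tuba8, named here after its value was seen, of 1.84. In KI against KO Tubb2a and Tubb2b were lower by log2 fold changes of -2.02 and -1.91 (limma adjusted p = 0.00264 and 0.00919), and Tubb5 was higher by 0.55 (0.0310). In KI against WT 0 of the 13 were called by limma, edgeR or DESeq2, and 8 passed at an unadjusted limma p under 0.05, all with higher values in KI, against 11.6% of all genes tested in either direction. Tubb2a and Tubb2b are near-identical copies, and reads shared between them make the split between the 2 uncertain. The KO against WT count of 5 became 3 without KO_2, WT_2 or WT_3 and 2 without KO_3 or WT_1, and without KO_1 4 were called higher and 1 lower. Without the 3 libraries with pancreatic transcripts 0 were called, with log2 fold changes of 1.71 for Tubb2a, 1.62 for Tubb2b, 0.86 for Tubb6 and 0.79 for Actb. In KI against KO, Tubb5 was lost without any KI library, KO_2, KO_3 or WT_1, without KO_1 6 genes were higher, and without the 3 libraries with pancreatic transcripts 0 of the 3 calls passed. Of 13 other tested substrates and of the 6 tubulin folding cofactors, 0 were called by limma or edgeR in any comparison. DESeq2 called Cdc20, Tbca and Tbcc in KO against WT, where it called 2292 genes over the whole table. At an unadjusted limma p under 0.05, 2 substrates and 3 cofactors passed in that comparison, against 25% of all genes tested. In the other comparisons 0 substrates and, in each, 1 cofactor passed, against 24.9% in KI against KO and 11.6% in KI against WT. For the substrates the median was 0.14 in KI against KO, 0.06 in KI against WT and -0.13 in KO against WT, and for the cofactors it was -0.08, -0.07 and 0.02. These medians lie near 0 and moved with single libraries. The substrate median in KI against WT was -0.049 without KI_1, -0.0055 without WT_3, 0.037 without WT_2, 0.097 without WT_1 and -0.10 without the 3 libraries with pancreatic transcripts. In KI against KO it was 0.041 without KO_3, and in KO against WT it was -0.048 without WT_1, -0.065 without WT_2, -0.078 without KO_1 and -0.079 without KO_3. Over all alternatives the cofactor median ran from -0.14 to -0.031 in KI against KO, from -0.15 to 0.042 in KI against WT and from -0.071 to 0.080 in KO against WT.

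Other chaperones reached higher fold changes in KI against KO than the TRiC subunits. Of 20 cytosolic heat shock chaperones and regulators, 12 were called higher in KI against KO and 0 lower, where 3.6% of all genes tested were called higher, with a median log2 fold change of 0.85 against 0.40 for the subunits. Hspa8, the constitutive HSP70, averaged 71421 ± 3981 normalized counts in KI, 21857 ± 1661 in KO and 43051 ± 2398 in WT livers (SD, n = 3 each). Its log2 fold change was 1.71 in KI against KO and -0.98 in KO against WT (limma adjusted p = 2.02e-04 and 0.0034). Hsph1, a nucleotide exchange factor of HSP70, had a log2 fold change of 1.44 in KI against KO (limma adjusted p = 1.47e-04), and it was the member called by limma in KI against WT, at 0.88 (0.0398). In KI against WT edgeR called 0 of the 20 and DESeq2 9, all higher, where DESeq2 called 385 genes over the whole table. At an unadjusted limma p under 0.05, 13 passed, against 11.6% of all genes tested. The log2 fold change was positive in 19 of the 20 in that comparison, with a median of 0.56. Stip1, which links HSP70 and HSP90, and Chordc1 had log2 fold changes of 1.14 and 0.89 in KI against KO (limma adjusted p = 0.00233 and 0.00237). In KO against WT 4 members were called lower, Hspa8, Hsph1, Dnaja1 and Fkbp4, and 3 higher, where 4.2% of all genes tested were called lower and 4.63% higher. The 3 were the inducible Hspa1a and Hspa1b, near-identical copies, and Bag3, which are named after their values were seen, with log2 fold changes of 1.41, 1.52 and 0.64. The KO against WT calls became 0 higher and 1 lower without KO_2, 0 and 2 without WT_1 or WT_2, 2 and 2 without WT_3, 0 and 4 without KO_3, and 0 in both directions without the 3 libraries with pancreatic transcripts. The call on Hsph1 in KI against WT was lost without any 1 of KI_1, KI_3, KO_2, KO_3 and the 3 WT libraries.

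The mitochondrial chaperonin, a relative of TRiC that folds proteins inside the organelle, also rose in KI against KO. Hspe1, its lid, had 9975 ± 1553 normalized counts in KI, 4910 ± 189 in KO and 7118 ± 1101 in WT livers (SD, n = 3 each). Its log2 fold change was 1.01 in KI against KO (limma adjusted p = 0.00322) and -0.53 in KO against WT (0.0487). Hspd1, the chamber, had 33656 ± 4045 normalized counts in KI, 20737 ± 2134 in KO and 28110 ± 2230 in WT livers, with a log2 fold change of 0.70 in KI against KO (limma adjusted p = 0.0190). Hspd1 was lost without KI_1, KO_2 or KO_3, and the KO against WT call on Hspe1 was lost without KI_3, KO_2, KO_3 or any WT library. The Hspe1 call was also lost with edgeR, no filter, only the 2 groups compared, the pancreas covariate and a block by the description number. Over 20 alternatives Hspd1 was called in 14 in KI against KO, and Hspe1 in 8 in KO against WT. Without the 3 libraries with pancreatic transcripts, 0 of the 12 heat shock calls and 0 of the 2 mitochondrial ones passed, while the log2 fold changes in KI against KO were 1.62 for Hspa8, 1.29 for Hsph1, 0.81 for Hspe1 and 0.71 for Hspd1.

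**Figure D5:**
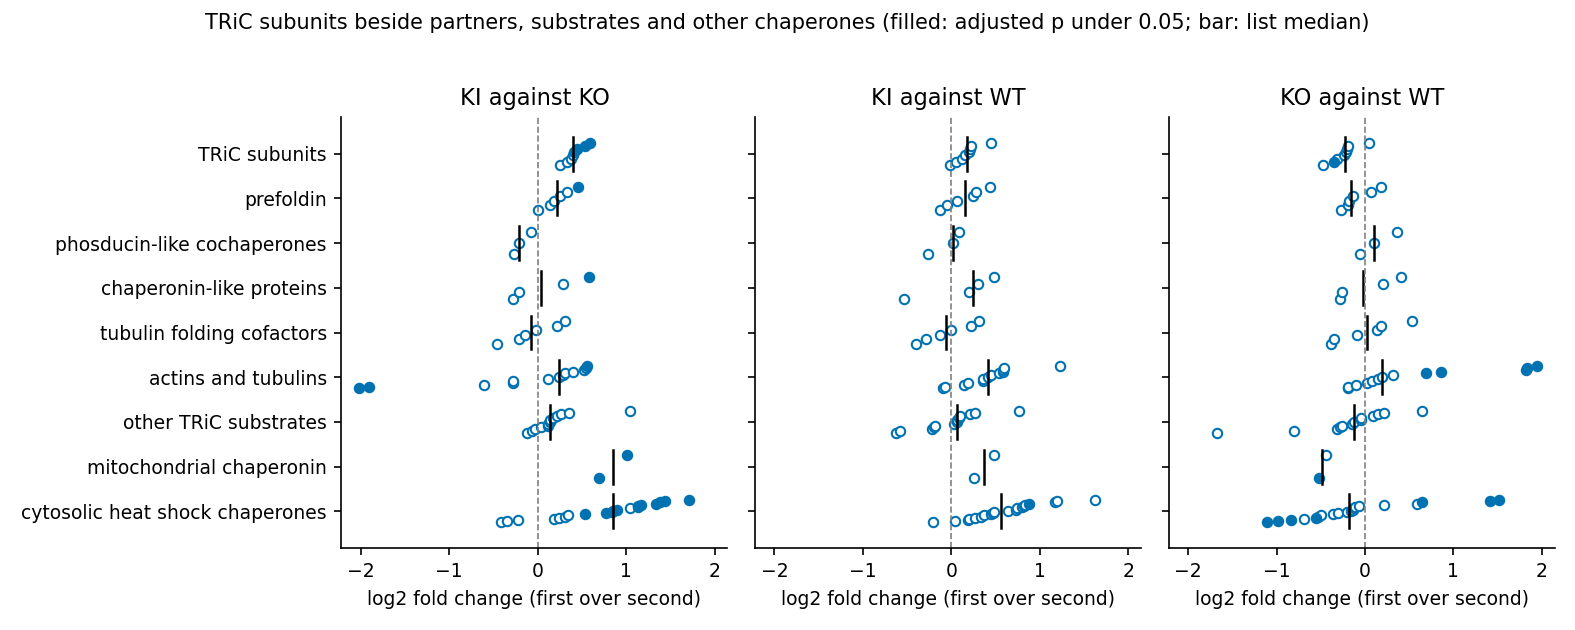
Log2 fold changes of the TRiC subunits, their partners, their substrates and other chaperones in KI against KO, KI against WT and KO against WT (first group over second), with filled points for adjusted p under 0.05 by limma and a bar at the median of each list. In KI against KO all TRiC subunits lie right of 0 within a narrow span, the heat shock list reaches 1.71, and Tubb2a and Tubb2b lie far left.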

How the data were processed

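The deposited table holds 1 column per liver library, in a unit of signal that its name calls normalized counts. The submitters' processing notes name TopHat2 and Bowtie2, which are aligners, featureCounts, which counts reads per gene, and the build GRCm38; versions, annotation and strand setting are not given in the sources used here. Per the labels' protocols, RNA was extracted with TriZol and libraries were made with a stranded mRNA kit. Each column held whole multiples of 1 step per library, so reads were recovered by dividing by it, and at least 99.994% of values came out whole within 0.0051 deposited units (5 did not). All columns matched a sample.

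Values were tested as log2(value + 1), so fold changes include a pseudocount of 1, in the 15238 genes with a mean of at least 10. The fit used limma 3.58.1 in R 4.3.3 with a variance trend, 1 mean per group and all 9 libraries (6 residual degrees of freedom), two-sided, with Benjamini-Hochberg adjustment over all genes tested; an adjusted p under 0.05 was called. Errors are SD over libraries or SE of the fit, and intervals are at 95%. edgeR 4.0.16 and DESeq2 1.42.0 on recovered reads, TMM scaling, pseudocounts of 0.5 and 5, no filter, fits of 2 groups, a replicate block and leaving out each library were alternatives. Leaving out the 3 libraries with over 0.1% pancreatic marker reads, a pancreas covariate and a block by the number in the description field were added after the data were seen. The procedure was tested on simulated data, and no library duplicated another.

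The subunits, the gene lists and the tests were chosen with earlier results of these data known. The text names all 8 subunits, Snd1, up to 4 called members of each list per comparison, taken by smallest adjusted p, any member of a list of 6 or fewer, and the 5 genes most like and 2 most unlike the subunits' mean profile, where only genes averaging 50 or more were ranked. Genes named outside this rule are marked, and the facing and overlapping genes were chosen by position. Gene models are from GENCODE M21 and promoters from RefSeq on GRCm38.p6. Other computing used Python 3.11.15, numpy 2.4.6, pandas 2.3.3 and matplotlib 3.10.9.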

Additional observations from a re-analysis of the deposited data

How the results depend on the processing

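The log2 fold changes of all 8 subunits in KI against KO were positive under all 20 alternatives (160 of 160 values, from 0.21 to 0.69). The median over the subunits moved less than the spread between libraries in every comparison and alternative. The number of subunits called did not hold: of 4 in KI against KO, 7 were called by DESeq2, 1 with only the 2 groups compared, 0 with the pancreas covariate and 0 without the 3 libraries with pancreatic transcripts. Leaving out single libraries gave 0 to 7. In KO against WT, with 1 call, DESeq2 and a pseudocount of 5 gave 2, and edgeR, no filter, only the 2 groups, the pancreas covariate, the replicate block, the block by the description number and leaving out the 3 libraries each gave 0; leaving out single libraries gave 0 to 3. In KI against WT, with 0 calls, DESeq2 gave 1, Cct3. The cause was not tested.

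Values close to 0 changed sign: Cct3 in KO against WT was -0.0042 with the pancreas covariate, and -0.039 to 0.12 with single libraries left out; Cct4 in KI against WT was 0.062 without the 3 libraries, and -0.045 to 0.015 with single libraries left out. Whether the replicate numbers of the titles pair the libraries was not settled. Same-numbered libraries had correlations of deviations from -0.14 to 0.57, highest for KI_3 with WT_3 (0.57) and KI_2 with WT_2 (0.53). Differently numbered libraries were not set beside them, and the description numbers put these same pairs together. KI_3 and WT_3 had the most pancreatic marker reads of their groups (6.36% and 1.33%). KI_2 and WT_2 had the least (0.00517% and 0.00443%). The part of pancreatic transcripts in these correlations was not tested. With the title numbers as a block, KI against KO had 4 calls and KO against WT 0. The limma adjusted p of Cct4 in KO against WT was then 0.0565, and 0.069 with the description numbers as a block. Hsph1 was not called in KI against WT under either block. Over the whole table DESeq2 called 2292, 385 and 2286 genes in KO against WT, KI against WT and KI against KO, against 1346, 4 and 1287 by limma, and without the 3 libraries 30, 0 and 4 were called.

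With 3 libraries a group, an interval that includes 0 does not show that a subunit kept its level, and without the 3 libraries KI is a single library assumed to vary like the other groups. Subunit depth was not limiting, at 3919 reads or more.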
